A study of Cavia porcellus with 44 samples.

Results

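The genes described here encode the proteins by which cells hold on to each other, seal the space between them, couple through gap junctions, or carry heparan sulfate at their surface. They were chosen by symbol, as the entries of the variance-stabilized table named as integrins (ITGA, ITGB), cadherins (CDH), protocadherins (PCDH), claudins (CLDN), connexins (GJA, GJB, GJC), glypicans (GPC), syndecans (SDC), intercellular adhesion molecules (ICAM), selectins (SEL), CADM, JAM or TJP proteins, VCAM1, PECAM1 or EPCAM. Of its 7747 symbols, 60 matched: 13 integrin symbols, 11 protocadherins, 8 cadherins, 8 connexins, 6 claudin symbols, 3 glypicans, 3 immunoglobulin-type molecules (ICAM2, ICAM5 and PECAM1), 2 syndecans, 2 selectins, 2 CADM genes, JAM3 and EPCAM. The pattern also caught ITGB1BP2, which encodes an integrin-binding protein, and CLDND1, a claudin-domain protein. All 60 had at least 200 counts over the 44 animals and were tested. The count table of 11967 symbols held 93 that matched, and the other 33 fell under that minimum and were not tested. VCAM1, ICAM1, CDH2, ITGAV and the TJP genes were not analysed here.

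Liver RNA was sequenced from 44 female Hartley guinea pigs after 32 weeks on feed, with 1 library per animal. Animals named LFH (n = 8) ate feed with 3.8% fat, 0% cholesterol and 2000 mg of vitamin C (vitC) per kg throughout, and animals named HFH (n = 8) ate feed with 20% fat, 0.35% cholesterol and the same vitC. The high fat feed also held added sucrose, which the low fat feed did not. Fat, cholesterol and sucrose therefore changed together between high and low fat feed, and their effects cannot be told apart. All other animals began with 16 weeks on the 20% fat, 0.35% cholesterol feed at 50 mg vitC/kg. In the next 16 weeks HFL/HFL animals (n = 10) kept that feed, HFL/HFH animals (n = 6) had 2000 mg vitC/kg in the same high fat feed, and HFL/LFL and HFL/LFH animals (n = 6 each) had the low fat feed with 50 and 2000 mg vitC/kg. Animals on low fat feed were pair-fed to those on high fat feed, and the groups of 6 were random subsets of larger groups. Ages were not given in the sources used here. Vitamin C is essential for guinea pigs, which, like humans, cannot make it, and the study used this diet as a model of steatohepatitis and asked whether it is reversed by a change of feed, with high or low vitC.

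Integrins are pairs of an alpha and a beta chain that bind matrix proteins or counter-receptors on other cells, and cadherins join like cells in adherens junctions. Claudins form tight junctions, connexins form the channels of gap junctions, and glypicans and syndecans present growth factors and lipoproteins on heparan sulfate chains. In the liver, hepatocytes are joined by E-cadherin and connexin channels, bile duct cells carry EPCAM and their own claudins, sinusoidal and vascular endothelium carries VE-cadherin and PECAM1, and leukocytes enter through selectins and integrins.

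The total count per animal ranged from 21133807 to 35427724, and the members took 0.402% to 0.676% of it, most in HFH animal 6. Levels are CPM (counts scaled to a common library size) on edgeR's effective library sizes, where 3 counts, the floor used here, equal 0.0626 to 0.170 CPM. These limits cover counting error only. ALB, the hepatocyte product albumin, ranged from 8482 CPM in HFH animal 6 to 171398 CPM in LFH animal 25, so every library held the labelled tissue. HFH animal 6 had the highest EPCAM and KRT7 (a bile duct keratin) of all animals, and the results that rest on it are given with and without it. ITGA6 had the same counts as PDK1 in every animal, PCDHB9 the same as PCDHB10, PCDHB11 the same as PCDHB12, and PCDH20 the same as an unnamed entry, so that these cannot be told apart. The clustered protocadherins PCDHGA1 and PCDHGA6 lie in a gene family with shared exons, and how their reads were split is uncertain.

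The first question was which of these genes differed between high and low fat feed. It was asked 3 times in animals that share no group: HFH over LFH (lifelong feed), HFL/HFH over HFL/LFH (after the switch, high vitC) and HFL/HFL over HFL/LFL (after the switch, low vitC). The call was a Benjamini-Hochberg adjusted p under 0.05 over all 7750 symbols tested with edgeR. In HFH over LFH 26 of the 60 members (43.3%) were called, 18 higher and 8 lower, beside 49.3% of all symbols (27.7% higher and 21.7% lower). Without HFH animals 6 and 61, the animals with the highest EPCAM, CLDN10 and GPC3, 21 of these 26 were called, 14 higher and 7 lower, and the others were CADM3, CDH24, CDH3, ITGB1 and PCDHGA6. The log2 fold change of CLDN10 was then 1.83 ± 0.47, that of GPC3 0.93 ± 0.32 and that of ITGB6 2.55 ± 0.57, each still called. In HFL/HFH over HFL/LFH 15 (25%) were called, 9 higher and 6 lower, beside 35.9% (19.4% and 16.5%). In HFL/HFL over HFL/LFL 22 (36.7%) were called, 7 higher and 15 lower, beside 37.8% (19.7% and 18.1%). In either direction together each share was below that of the whole table. The members' median log2 fold change was 0.28 in HFH over LFH (0.06 over all symbols), 0.03 in HFL/HFH over HFL/LFH (0.01) and -0.11 in HFL/HFL over HFL/LFL (0.03). The groups did not overlap in CPM for 6, 7 and 6 members in this order, beside 16.9%, 16.2% and 9.90% of all symbols.

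Across the feed comparisons, 39 members (65%) were called at least once, beside 61.4% of all symbols, and 16 (26.7%) more than once, beside 37.7%. All 16 had the same direction each time, as did 2908 of the 2924 symbols called more than once. In all 3, 8 members (13.3%) were called, beside 23.9% of all symbols (13.4% higher and 10.5% lower): CLDN4, EPCAM, CLDN10, GPC1 and ITGB5 were higher on high fat feed, and GJB2, GJB6 and SDC2 were lower.

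**Figure D1:**
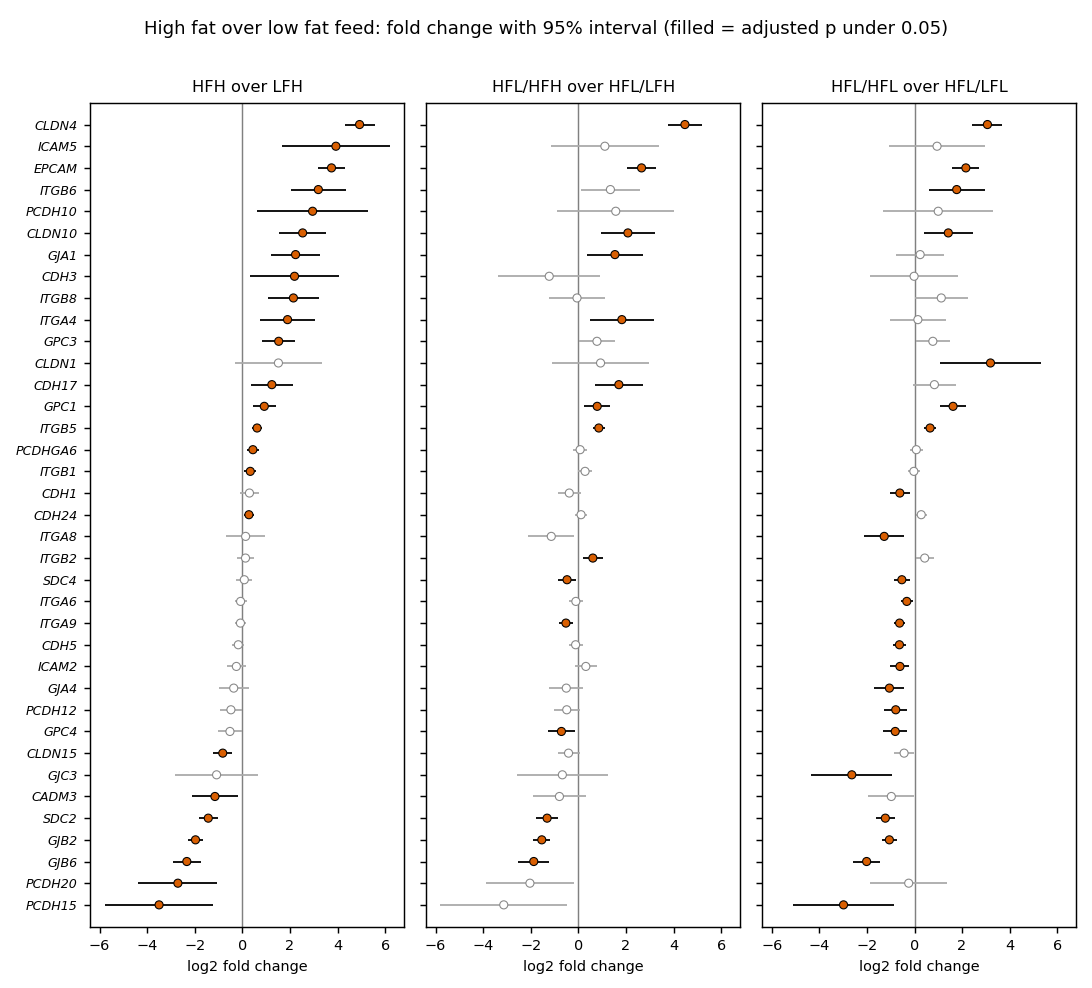
Log2 fold change (horizontal axis) of 37 members called in at least 1 feed comparison, with 95% intervals, in HFH over LFH, HFL/HFH over HFL/LFH and HFL/HFL over HFL/LFL; filled points have an adjusted p under 0.05. CLDN4 is at the top with 4.93, 4.47 and 3.07, and the 3 members called lower in every panel are GJB2, GJB6 and SDC2.

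CLDN4 and EPCAM, genes of bile duct epithelium, separated all animals on high fat feed from all on low fat feed. CLDN4, a tight junction claudin of duct epithelium, ranged from 1.0 to 5.14 CPM in LFH (median 2.30) and from 45.4 to 119 CPM in HFH (median 83.7). After the switch it ranged from 2.65 to 8.00 CPM in HFL/LFH (median 3.31) and from 36.5 to 140 CPM in HFL/HFH (median 92.3). With low vitC it ranged from 4.83 to 9.29 CPM in HFL/LFL (median 5.63) and from 23.3 to 72.4 CPM in HFL/HFL (median 54.0). The lowest animal on high fat feed lay above the highest on low fat feed. CLDN4 was 30.4-fold higher in HFH than LFH (log2 fold change 4.93 ± 0.31 SE, adjusted p = 4.88e-16), 22.2-fold higher in HFL/HFH than HFL/LFH (4.47 ± 0.35, adjusted p = 5.18e-13) and 8.37-fold higher in HFL/HFL than HFL/LFL (3.07 ± 0.31, adjusted p = 5.40e-10).

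EPCAM, the epithelial cell adhesion molecule of bile duct and progenitor cells, ranged from 9.04 to 24.6 CPM in LFH (median 13.5) and from 103 to 391 CPM in HFH (median 180). It ranged from 14.7 to 55.1 CPM in HFL/LFH (median 24.9) and from 145 to 239 CPM in HFL/HFH (median 163). It ranged from 16.8 to 70.3 CPM in HFL/LFL (median 25.0) and from 112 to 224 CPM in HFL/HFL (median 137). The groups did not overlap here either. Its log2 fold changes were 3.75 ± 0.28 (adjusted p = 1.62e-14), 2.65 ± 0.30 (adjusted p = 4.34e-09) and 2.16 ± 0.28 (adjusted p = 7.94e-08). Without HFH animal 6 the first was 3.54.

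CLDN10, a claudin that forms ion pores between cells, differed in the same direction with overlap between the groups. It ranged from 3.05 to 16.3 CPM in LFH (median 8.73), from 5.66 to 21.7 CPM in HFL/LFH (median 6.79) and from 4.68 to 28.8 CPM in HFL/LFL (median 8.42). On high fat feed it ranged from 9.31 to 129 CPM in HFH (median 40.1), from 9.34 to 58.3 CPM in HFL/HFH (median 45.3) and from 4.45 to 93 CPM in HFL/HFL (median 21.1). The log2 fold changes were 2.53 ± 0.49 (adjusted p = 3.59e-05), 2.08 ± 0.56 (adjusted p = 0.00294) and 1.42 ± 0.51 (adjusted p = 0.0244). The last was called in 12 of 16 fits without 1 animal, and was 1.03 without HFL/HFL animal 75, the highest of its group (adjusted p = 0.0886). The lowest CLDN10 of each high fat group was in the animal with the lowest KRT7 of that group: HFH animal 47 with 9.31 CPM of CLDN10 and 24.1 CPM of KRT7, HFL/HFH animal 20 with 9.34 and 51.9 CPM, and HFL/HFL animal 90 with 4.45 and 34.6 CPM. The other bile duct markers tested did not all follow. In these animals ELF3 was 106, 124 and 119 CPM, second highest of each group. KRT19 was 581, 570 and 450 CPM, second highest in the first pair and second lowest in the last. DCDC2 was low, with 1.11, 16.8 and 6.68 CPM.

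The integrin beta chains ITGB6 and ITGB8, which pair with the alpha V chain and release active TGF-beta from its latent complex, had few counts in every group. ITGB6 ranged from 0 to 0.637 CPM in LFH (median 0.280) and from 0.719 to 6.18 CPM in HFH (median 1.84), with no overlap. It was 3.19 ± 0.57 higher on the log2 scale in HFH than LFH (adjusted p = 1.12e-05) and 1.77 ± 0.58 higher in HFL/HFL than HFL/LFL (adjusted p = 0.0142). In HFL/HFH over HFL/LFH it was 1.34 ± 0.61 and not called (adjusted p = 0.0811, 95% interval 0.11 to 2.57). ITGB8 ranged from 0.273 to 1.24 CPM in LFH and from 1.15 to 5.39 CPM in HFH, and was 2.14 ± 0.53 higher (adjusted p = 0.000895). In the switched animals its log2 fold changes were -0.06 ± 0.59 and 1.13 ± 0.55, neither called. The difference of the feed effect on ITGB8 between switched and lifelong animals was -2.20 ± 0.79 and did not pass the correction (p = 0.00796, adjusted p = 0.541).

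Bile duct markers moved with these members. All 4 tested of a list of 11 were higher in HFH than LFH, 3 of 4 in HFL/HFH than HFL/LFH and 3 of 4 in HFL/HFL than HFL/LFL. Of all symbols, 27.7%, 19.4% and 19.7% were higher in this order. KRT7 rose by 3.73 ± 0.43, 2.79 ± 0.47 and 2.0 ± 0.43 in these comparisons. The summed level of the 4 genes ranged from 147 to 402 CPM in LFH, 141 to 397 CPM in HFL/LFH and 112 to 373 CPM in HFL/LFL. It ranged from 668 to 1211 CPM in HFH, 722 to 1245 CPM in HFL/HFH and 603 to 1165 CPM in HFL/HFL. Their part in the rise of CLDN4, EPCAM, CLDN10 and ITGB6 was not tested. In bulk liver, a change in the number of cells of a type and a change in RNA per cell cannot be told apart.

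**Figure D2:**
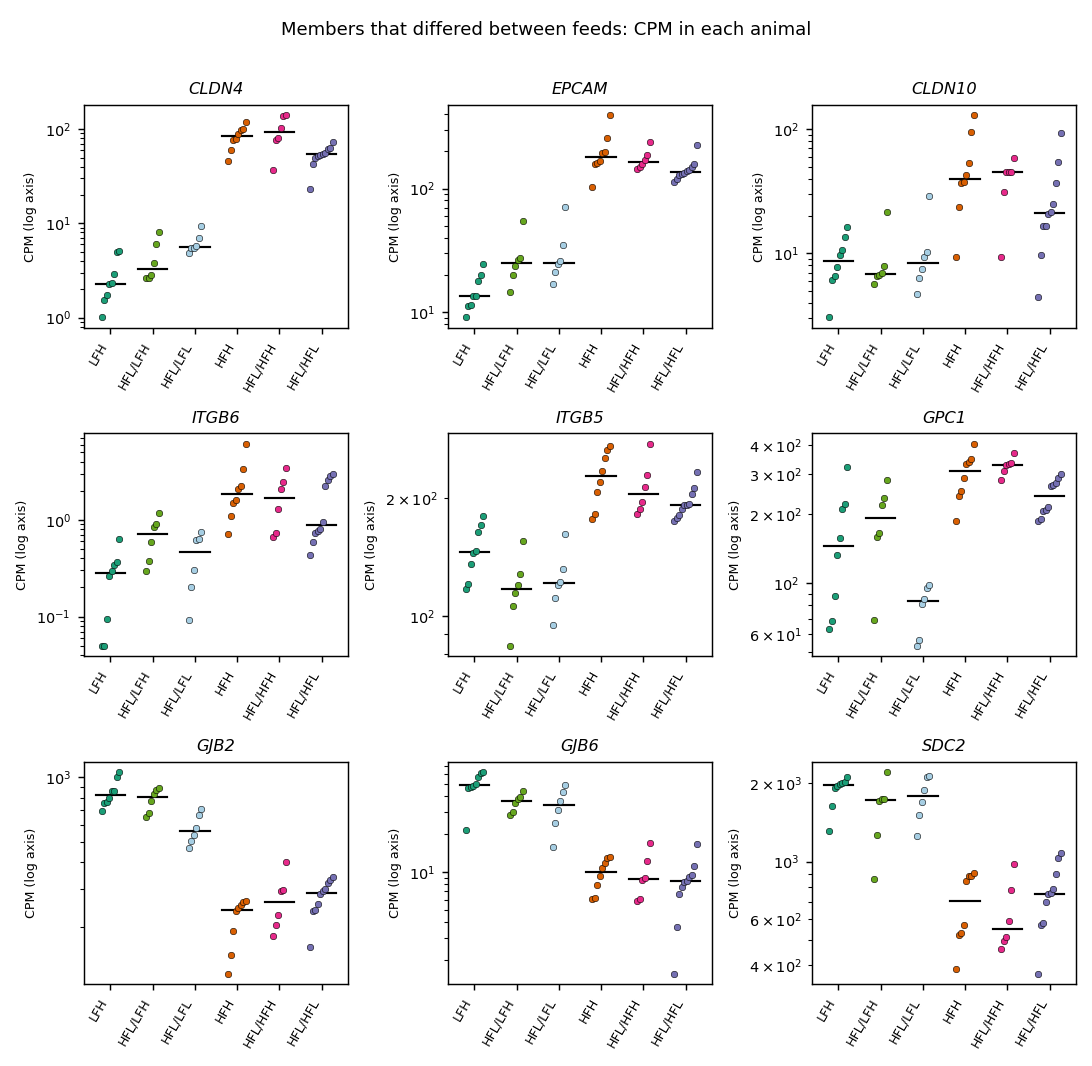
CPM (log axis) of 9 members in each of the 44 animals by group, with points ordered by value within a group, a line at the group median, and 0 drawn at 0.05. CLDN4 and EPCAM separate all animals on high fat feed from all on low fat feed, GJB2 is lower in every animal on high fat feed, and GPC1 is lowest in HFL/LFL.

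CDH17, known as liver-intestine cadherin, had few counts, with medians of 0.780 CPM in LFH and 2.26 CPM in HFH, and of 0.711 CPM in HFL/LFH and 2.54 CPM in HFL/HFH. Its log2 fold changes were 1.24 ± 0.43 (adjusted p = 0.0159), 1.70 ± 0.51 (adjusted p = 0.00714) and, not called, 0.84 ± 0.45 in HFL/HFL over HFL/LFL (adjusted p = 0.142). CDH3, or P-cadherin, ranged from 0 to 1.23 CPM in LFH and from 0.347 to 4.42 CPM in HFH. It was called in HFH over LFH (2.19 ± 0.92, adjusted p = 0.0453), and in 7 of 16 fits without 1 animal, with 1.69 without HFH animal 6 (adjusted p = 0.134) and 2.91 without LFH animal 92 (adjusted p = 0.0140). CDH3 was highest in HFH animal 6 (4.42 CPM), HFH animal 61 (3.74 CPM) and HFL/LFH animal 32 (2.89 CPM). The mesothelial gene MSLN was 28.0, 10.2 and 49.3 CPM in these animals, against group medians of 5.43 CPM in HFH and 2.14 CPM in HFL/LFH, and its part in the CDH3 levels was not tested.

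**Figure D3:**
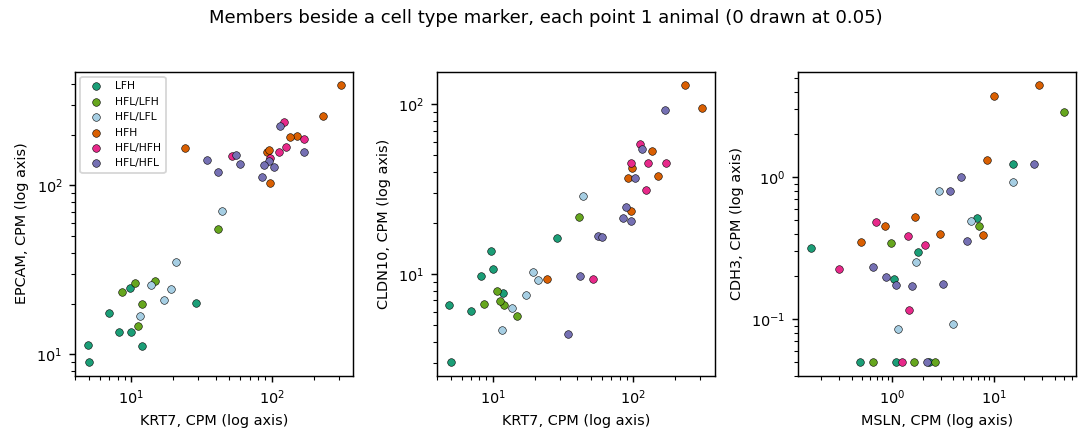
Levels in CPM (both axes log, 0 drawn at 0.05) of EPCAM and CLDN10 against the bile duct keratin KRT7, and of CDH3 against the mesothelial gene MSLN, with 1 point per animal coloured by group. HFH animal 6 is at the top right for EPCAM and KRT7 (391 and 310 CPM), and the animal with the highest MSLN is HFL/LFH animal 32.

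CLDN15, a pore-forming claudin, was lower in HFH (28.9 to 83.0 CPM, median 57.6) than in LFH (75.8 to 124 CPM, median 95.1), by 0.83 ± 0.20 on the log2 scale (-0.83, adjusted p = 0.000610), and was not called after the switch. CLDN1, a barrier claudin, was near the floor in HFL/LFL (0 to 0.499 CPM, median 0.165) and higher in HFL/HFL (0.116 to 6.43 CPM, median 1.19). Its log2 fold change there was 3.19 ± 1.04 (adjusted p = 0.0138), 2.68 without HFL/HFL animal 31 and 3.8 without HFL/LFL animal 53. CLDN11 and CLDND1 were called in no comparison.

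The connexin genes GJB2 and GJB6 fell on high fat feed. GJB2, which encodes a connexin of the hepatocyte gap junction, ranged from 697 to 1055 CPM in LFH (median 825) and from 122 to 265 CPM in HFH (median 242). It ranged from 653 to 885 CPM in HFL/LFH (median 801) and from 182 to 402 CPM in HFL/HFH (median 262). It ranged from 468 to 712 CPM in HFL/LFL (median 557) and from 163 to 342 CPM in HFL/HFL (median 290). Every animal on low fat feed lay above every animal on high fat feed. Log2 fold changes were -1.97 ± 0.16 (adjusted p = 1.38e-13), -1.54 ± 0.18 (adjusted p = 5.85e-09) and -1.06 ± 0.15 (adjusted p = 6.96e-07).

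GJB6, a related connexin, ranged from 21.7 to 62.5 CPM in LFH (median 49) and from 6.13 to 13.2 CPM in HFH (median 9.93). Its medians after the switch were 36.9 CPM in HFL/LFH and 8.76 CPM in HFL/HFH, and on low vitC 33.7 CPM (HFL/LFL) and 8.41 CPM (HFL/HFL). The log2 fold changes were -2.34 ± 0.29 (adjusted p = 6.59e-09), -1.88 ± 0.33 (adjusted p = 1.24e-05) and -2.01 ± 0.28 (adjusted p = 2.71e-07). The groups did not overlap in the first pair of comparisons, and in the last the lowest HFL/LFL animal (15.8 CPM) was below the highest HFL/HFL animal (16.7 CPM).

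CDH1, or E-cadherin, the adherens junction protein of hepatocytes and duct cells, did not follow this pattern. It ranged from 165 to 349 CPM in LFH and from 139 to 409 CPM in HFH (0.30 ± 0.20, adjusted p = 0.238, 95% interval -0.12 to 0.71). It was lower in HFL/HFL (180 to 337 CPM, median 241) than in HFL/LFL (275 to 508 CPM, median 384), with a log2 fold change of -0.62 ± 0.21 (adjusted p = 0.0172). Without HFL/LFL animal 49 this was -0.52 and not called (adjusted p = 0.0653).

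Among the hepatocyte markers, all 6 tested of a list of 13 were lower in HFH than LFH, 3 of 6 in HFL/HFH than HFL/LFH and 4 of 6 in HFL/HFL than HFL/LFL. Of all symbols, 21.7%, 16.5% and 18.1% were lower in this order. ALB fell by 1.60 ± 0.33, 1.86 ± 0.38 and 1.41 ± 0.32 on the log2 scale. The summed level of the 6 genes ranged from 118169 to 240342 CPM in LFH and from 28807 to 99446 CPM in HFH. Their part in the fall of GJB2, GJB6 and SDC2 was not tested.

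Of the other connexins, GJA1 went the opposite way and GJC3 differed in a single comparison. GJA1, the connexin of non-parenchymal liver cells, ranged from 0.845 to 5.55 CPM in LFH (median 2.24) and from 3.89 to 19.5 CPM in HFH (median 14.9), a log2 fold change of 2.23 ± 0.51 (adjusted p = 0.000300). In HFL/HFH over HFL/LFH it was 1.53 ± 0.58 (adjusted p = 0.0333), called in 6 of 12 fits without 1 animal, and 0.99 without HFL/HFH animal 15 (adjusted p = 0.183), which had 21.2 CPM against a group median of 4.56 CPM. It was not called in HFL/HFL over HFL/LFL (0.24 ± 0.51, 95% interval -0.78 to 1.26). GJC3, with 11 animals at 0, was lower in HFL/HFL than HFL/LFL (-2.64 ± 0.84, adjusted p = 0.0116). GJC1 was called in no comparison.

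The heparan sulfate proteoglycans divided. SDC2, a syndecan, ranged from 1311 to 2112 CPM in LFH (median 1965) and from 387 to 908 CPM in HFH (median 707), without overlap. It ranged from 857 to 2211 CPM in HFL/LFH (median 1724) and from 462 to 979 CPM in HFL/HFH (median 552), and from 1252 to 2123 CPM in HFL/LFL (median 1785) and from 371 to 1080 CPM in HFL/HFL (median 754). In the 3 comparisons the log2 fold changes were -1.43 ± 0.20 (adjusted p = 7.36e-08), -1.32 ± 0.23 (adjusted p = 1.03e-05) and -1.23 ± 0.20 (adjusted p = 3.48e-06). SDC4, a syndecan of focal adhesions, did not differ detectably in HFH over LFH (0.08 ± 0.16, 95% interval -0.25 to 0.41). It was lower in HFL/HFL than HFL/LFL (-0.53 ± 0.17, adjusted p = 0.0105) and in HFL/HFH than HFL/LFH (-0.48 ± 0.19, adjusted p = 0.0439), the latter called in only 2 of 12 fits that each left out 1 animal.

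GPC1, a glypican that binds growth factors, was called in all 3 feed comparisons and, on low fat feed after the switch, also between vitC levels. It ranged from 63.2 to 321 CPM in LFH (median 145), from 69.1 to 282 CPM in HFL/LFH (median 192) and from 53.3 to 97.6 CPM in HFL/LFL (median 83.3). On high fat feed it ranged from 187 to 407 CPM in HFH (median 309), from 283 to 368 CPM in HFL/HFH (median 329) and from 187 to 301 CPM in HFL/HFL (median 240). HFL/LFL lay wholly below all 3 high fat groups. Between feeds the log2 fold changes were 0.92 ± 0.24 (adjusted p = 0.00140), 0.79 ± 0.28 (adjusted p = 0.0219) and 1.62 ± 0.26 (adjusted p = 4.46e-06). Without HFL/LFH animal 43 the second was 0.62 and not called (adjusted p = 0.0667).

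GPC3, a glypican known as a marker of fetal liver and of liver cancer, ranged from 22.9 to 40.8 CPM in LFH (median 35.1) and from 37.1 to 210 CPM in HFH (median 73.8). The log2 fold change was 1.53 ± 0.34 (adjusted p = 0.000218), and 1.26 without HFH animal 6 (adjusted p = 0.00152). After the switch it was 0.78 ± 0.38 and 0.77 ± 0.35, neither called (adjusted p = 0.113 and 0.0785). GPC4 was lower on high fat feed after the switch, with -0.72 ± 0.28 in HFL/HFH over HFL/LFH (adjusted p = 0.0420, called in 5 of 12 fits without 1 animal) and -0.81 ± 0.25 in HFL/HFL over HFL/LFL (adjusted p = 0.00814). In HFH over LFH it was -0.52 ± 0.24 (adjusted p = 0.0701).

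Of the 13 integrin symbols, 5 were higher and 0 lower in HFH than LFH, 3 higher and 1 lower in HFL/HFH than HFL/LFH, and 2 higher and 3 lower in HFL/HFL than HFL/LFL, beside 49.3%, 35.9% and 37.8% of all symbols called in either direction. ITGB5, which pairs with the alpha V chain to bind vitronectin, ranged from 117 to 180 CPM in LFH (median 145) and from 176 to 271 CPM in HFH (median 227). It ranged from 84 to 156 CPM in HFL/LFH and from 182 to 275 CPM in HFL/HFH, and from 95.1 to 162 CPM (HFL/LFL) and from 175 to 232 CPM (HFL/HFL). The groups overlapped only in HFH over LFH. Differences on the log2 scale were 0.62 ± 0.11 (adjusted p = 1.32e-05), 0.86 ± 0.13 (adjusted p = 1.27e-06) and 0.65 ± 0.12 (adjusted p = 2.68e-05).

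ITGB1, the beta chain shared by most matrix-binding integrins, was slightly higher in HFH than LFH (0.33 ± 0.12, adjusted p = 0.0243, called in 14 of 16 fits without 1 animal) and not called after the switch. ITGA4, the leukocyte chain that binds VCAM1 and fibronectin, ranged from 0.344 to 2.1 CPM in LFH and from 1.49 to 10.3 CPM in HFH, a log2 fold change of 1.90 ± 0.58 (adjusted p = 0.00588). In HFL/HFH over HFL/LFH it was 1.82 ± 0.67 (adjusted p = 0.0285), called in 9 of 12 such fits, and 1.27 without HFL/HFH animal 15 (adjusted p = 0.141), and in HFL/HFL over HFL/LFL it was 0.14 ± 0.58. ITGB2, the beta chain of leukocyte integrins, was higher in HFL/HFH (111 to 208 CPM, median 177) than in HFL/LFH (68.3 to 176 CPM, median 99.5), with 0.61 ± 0.21 (adjusted p = 0.0211). This was called in 8 of 12 fits without 1 animal, and was 0.50 without HFL/LFH animal 3 (adjusted p = 0.0708). It was not called in HFH over LFH (0.13 ± 0.18, 95% interval -0.24 to 0.50) or in HFL/HFL over HFL/LFL (0.43 ± 0.19, adjusted p = 0.0708). In the macrophage list, 2 of 6 tested genes were higher and 2 lower in HFH than LFH. In both feed comparisons after the switch 2 were higher and 1 lower. In the neutrophil list 4 of 7 were higher in HFL/HFH than HFL/LFH, against 0 of 7 in HFH over LFH and 1 of 7 in HFL/HFL over HFL/LFL. Of all symbols, 27.7% were higher in HFH than LFH, 19.4% in HFL/HFH than HFL/LFH and 19.7% in HFL/HFL than HFL/LFL. The part of these lists in the ITGB2 and ITGA4 levels was not tested.

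ITGA9, a receptor chain for tenascin and other matrix proteins, was called in both feed comparisons after the switch and not in that of lifelong feed. It ranged from 64.1 to 110 CPM in HFH (median 92.4) and from 68 to 112 CPM in LFH (median 91.2), with no difference detected (-0.08 ± 0.12, 95% interval -0.32 to 0.16). It ranged from 52.7 to 71.2 CPM in HFL/HFH (median 63.6) against 68 to 104 CPM in HFL/LFH (median 96.2). It ranged from 44.1 to 77.9 CPM in HFL/HFL (median 63.8) against 71.1 to 117 CPM in HFL/LFL (median 99.9). The log2 fold changes after the switch were -0.53 ± 0.14 (adjusted p = 0.00239) and -0.63 ± 0.12 (adjusted p = 7.39e-05). ITGA9 was also lower in HFL/HFL than in HFH (-0.48 ± 0.11, adjusted p = 0.0455), where 1 of 60 members was called beside 0.271% of all symbols (0.116% higher and 0.155% lower; 21 symbols by edgeR and 147 by DESeq2). DESeq2 called ITGA9 and ITGB2 there. The edgeR call was lost in 11 of 18 fits that left out 1 animal, with an adjusted p of up to 0.142 without HFH animal 14. Against HFH, HFL/HFH was -0.47 ± 0.13 and not called (adjusted p = 0.585). The difference of the feed effect between switched and lifelong animals was -0.44 ± 0.18 for ITGA9 and did not pass the correction (p = 0.0194, adjusted p = 0.631).

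ITGA8, an integrin chain of mesenchymal cells, was lower in HFL/HFL than HFL/LFL (-1.27 ± 0.41, adjusted p = 0.0133), called in 14 of 16 fits without 1 animal (-0.93, adjusted p = 0.0871 without HFL/LFL animal 53). ITGA6, whose counts are those of PDK1, was lower there too (-0.32 ± 0.13, adjusted p = 0.0402), but called in only 7 of 16 fits without 1 animal (-0.28, adjusted p = 0.105 without HFL/LFL animal 49). The collagen receptor chains ITGA10 and ITGA11, the leukocyte chain ITGAD and ITGB1BP2 were called in no comparison.

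CDH5, GJA4, ICAM2 and PCDH12, members known from endothelium, fell in HFL/HFL over HFL/LFL, where 18.1% of all symbols were lower. PECAM1, JAM3 and SELP, which endothelium also carries, were not called there. These genes were grouped after their values were seen. CDH5, or VE-cadherin, the adherens junction protein of endothelium, ranged from 130 to 180 CPM in HFL/LFL (median 161) and from 73.7 to 154 CPM in HFL/HFL (median 89.7), a log2 fold change of -0.63 ± 0.13 (adjusted p = 0.000129). GJA4, a connexin of vessel walls, ranged from 25.3 to 155 CPM in HFL/LFL (median 85.0) and from 23.9 to 55.7 CPM in HFL/HFL (median 42.0), with -1.05 ± 0.31 (adjusted p = 0.00649). ICAM2, the ligand of leukocyte integrins on resting endothelium, ranged from 10.7 to 28.5 CPM and from 10.1 to 17.8 CPM (medians 18.9 and 12.1), with -0.61 ± 0.20 (adjusted p = 0.0127), and was not called without HFL/LFL animal 44 (-0.46, adjusted p = 0.0666). PCDH12, an endothelial protocadherin, had medians of 21.1 and 11.7 CPM, with -0.79 ± 0.24 (adjusted p = 0.00839). The groups overlapped for each of these genes.

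In the other feed comparisons none of CDH5, GJA4, ICAM2 and PCDH12 was called. In HFH over LFH their log2 fold changes were -0.17 ± 0.13, -0.36 ± 0.31, -0.25 ± 0.19 and -0.48 ± 0.24, and in HFL/HFH over HFL/LFH they were -0.12 ± 0.15, -0.51 ± 0.36, 0.31 ± 0.23 and -0.49 ± 0.27. PECAM1, an adhesion molecule at endothelial cell contacts, was called in no comparison, with -0.06 ± 0.09 in HFL/HFL over HFL/LFL (95% interval -0.25 to 0.13) and a range of 104 to 188 CPM over all animals. JAM3, of endothelial and other junctions, was called in no comparison either. Of the 5 endothelial markers tested from a list of 13, 4 were lower in HFL/HFL than HFL/LFL, among them FLT1 (-1.23 ± 0.15) and LYVE1 (-1.22 ± 0.21), while VWF was 0.68 ± 0.23 higher in HFH than LFH and 0.62 ± 0.23 lower (-0.62) in HFL/HFL than HFL/LFL. In HFH over LFH 3 were lower and 1 higher, and in HFL/HFH over HFL/LFH 3 were lower. Of all symbols, 21.7% and 16.5% were lower in this order, and 18.1% in HFL/HFL over HFL/LFL. The summed level of these 5 ranged from 739 to 917 CPM in HFL/LFL and from 360 to 653 CPM in HFL/HFL, and from 786 to 1025 CPM in LFH and 501 to 631 CPM in HFH. It ranged from 593 to 945 CPM in HFL/LFH and from 370 to 602 CPM in HFL/HFH. Their part in the result was not tested.

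**Figure D4:**
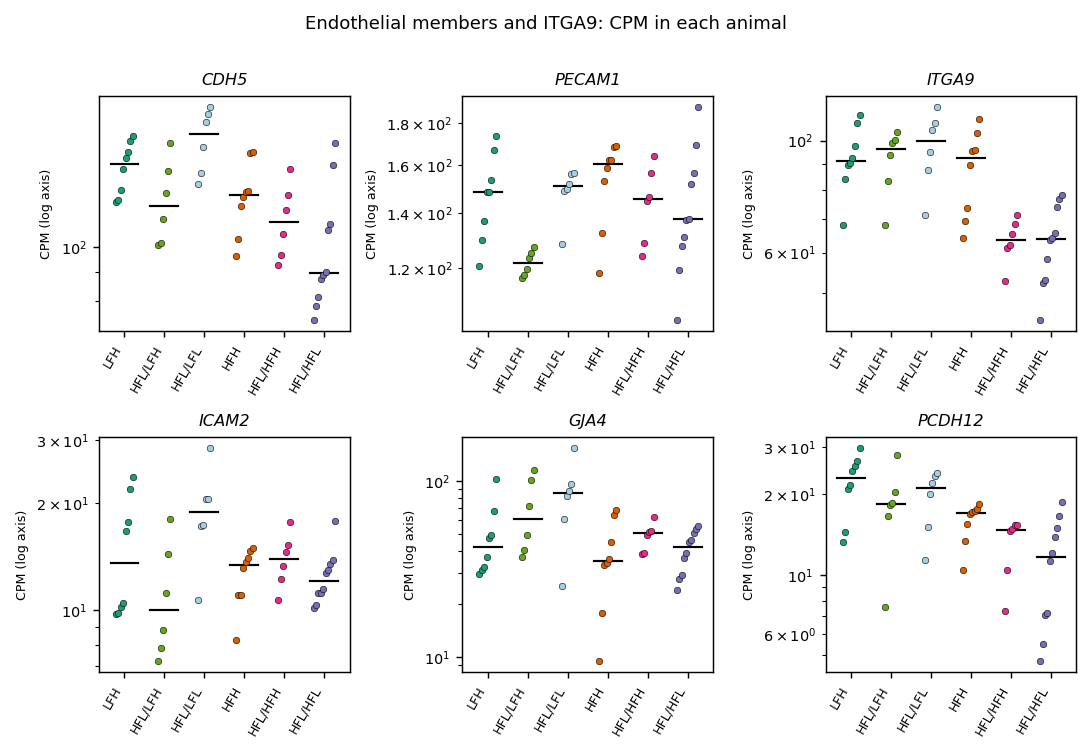
CPM (log axis) of CDH5, PECAM1, ITGA9, ICAM2, GJA4 and PCDH12 in each animal by group, with points ordered by value within a group and a line at the group median. CDH5 has its lowest median in HFL/HFL (89.7 CPM), ITGA9 is low in HFL/HFH and HFL/HFL, and PECAM1 is narrow in HFL/LFH (117 to 127 CPM).

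SELP, a selectin of platelets and endothelium that slows leukocytes on the vessel wall, was called in no comparison. It ranged from 2.33 to 8.28 CPM over all animals, with -0.03 ± 0.24 in HFH over LFH (95% interval -0.51 to 0.44). No gene of the platelet list reached the minimum of counts. ICAM5, an adhesion molecule best known from neurons, was at 0 in 18 animals and higher in HFH (0.0653 to 1.08 CPM) than LFH (0 to 0.191 CPM), with 3.93 ± 1.13 (adjusted p = 0.00352). This was 3.59 without HFH animal 88 and 6.53 without LFH animal 64. CADM1, an immunoglobulin-type molecule of epithelia, was called in no comparison, and CADM3 was lower in HFH than LFH (-1.15 ± 0.49, adjusted p = 0.0454), in 7 of 16 fits without 1 animal.

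Many protocadherins and the remaining cadherins had few counts. Of the 11 protocadherins, 2 were higher and 2 lower in HFH than LFH and 7 were not called, beside 27.7% of all symbols higher and 21.7% lower. PCDH15, best known from the hair cells of the ear, ranged from 0.418 to 7.06 CPM in LFH (median 1.80) and from 0 to 0.973 CPM in HFH (median 0.0779). It was lower in HFH than LFH (-3.50 ± 1.13, adjusted p = 0.00893), with -2.97 without LFH animal 79 and -4.67 without HFH animal 18. It was also lower in HFL/HFL than HFL/LFL (-2.98 ± 1.06, adjusted p = 0.0232), with -4.48 without HFL/HFL animal 34, and was not called there without HFL/LFL animal 17 (-2.49, adjusted p = 0.0770). In HFL/HFH over HFL/LFH it was -3.14 ± 1.32 (adjusted p = 0.0583). PCDH20, whose counts are shared with an unnamed entry, was lower in HFH than LFH (-2.71 ± 0.82, adjusted p = 0.00574). PCDHGA6 and PCDH10 were higher there (0.44 ± 0.13, adjusted p = 0.00345, and 2.95 ± 1.16, adjusted p = 0.0316), PCDH10 with 18 animals at 0 and called in 9 of 16 fits without 1 animal (2.51 without HFH animal 1 and 3.71 without LFH animal 25). CDH24 was slightly higher in HFH than LFH (0.27 ± 0.11, adjusted p = 0.0396, called in 7 of 16 such fits). CDH11, CDH13 and CDH22 were called in no comparison, CDH11 with 18 animals at 0.

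**Figure D5:**
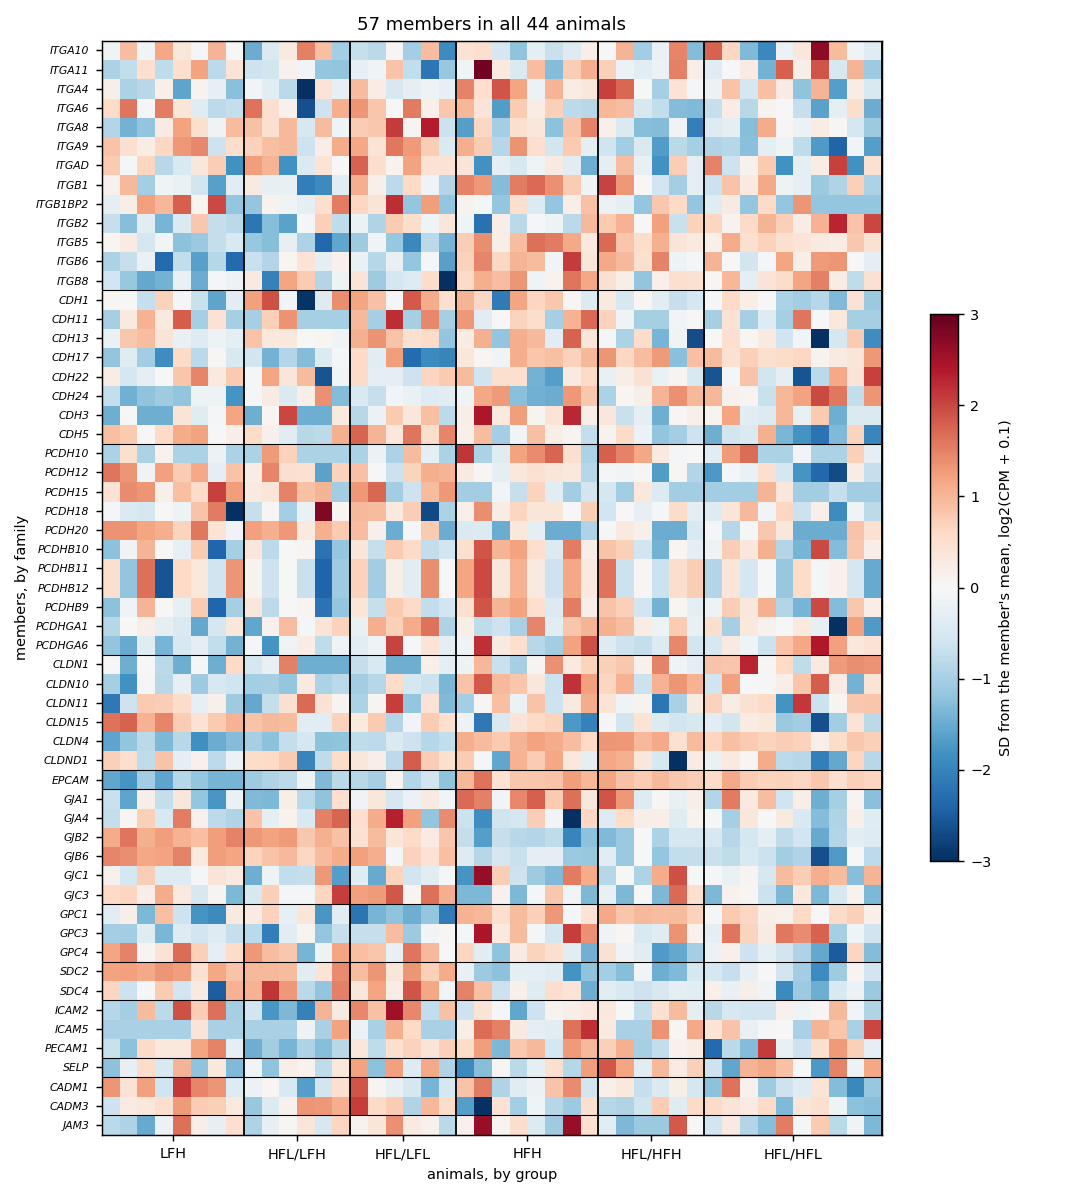
Of the 60 members, 57 (rows, by family) in all 44 animals (columns, by group), as the distance in SD from each member's mean of log2(CPM + 0.1). CLDN4 and EPCAM are mostly blue in the low fat groups and red in the high fat groups, and GJB2, GJB6 and SDC2 are mostly the reverse, with single animals that differ (EPCAM in HFL/LFL animal 44 and SDC2 in HFL/LFH animal 33).

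The second question was whether vitC changed these genes within a feed. On the low fat feed, 1 of 60 members was called in HFL/LFL over HFL/LFH (beside 0.219% of all symbols, and 0.0645% lower; 17 symbols by edgeR and 80 by DESeq2): GPC1, lower with low vitC by 1.27 on the log2 scale (-1.27 ± 0.28, adjusted p = 0.0378). The ranges, 53.3 to 97.6 CPM and 69.1 to 282 CPM, overlapped through HFL/LFH animal 43. The call was kept in 6 of 12 fits without 1 animal and lost without HFL/LFL animals 13, 49 or 68 or HFL/LFH animals 3, 4 or 33, with an adjusted p of up to 0.158 (without HFL/LFH animal 4, where the log2 fold change was -1.12). It was also lost with the 12 animals of the comparison alone in the fit (adjusted p = 0.281) and with limma on the variance-stabilized values (0.0642), and the lowest of the other alternatives was 0.00212 with DESeq2. PECAM1 alone did not overlap (128 to 156 CPM in HFL/LFL and 117 to 127 CPM in HFL/LFH, beside 0.503% of all symbols), with 0.29 ± 0.11, not called (adjusted p = 0.244). ICAM2 was 0.77 ± 0.23 and not called (adjusted p = 0.130).

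On the high fat feed, 0 of 60 members were called in HFL/HFL over HFL/HFH (edgeR, beside 0.0129% of all symbols), and 1 member and 261 symbols had an unadjusted p under 0.05. The member was CLDN4, with 23.3 to 72.4 CPM in HFL/HFL and 36.5 to 140 CPM in HFL/HFH (-0.86 ± 0.26, p = 0.00203, adjusted p = 1.0). DESeq2 called 1 of all symbols there. Low vitC throughout against high vitC throughout, HFL/HFL over HFH, gave the 1 call of ITGA9 above, with 18 members and 1344 symbols at an unadjusted p under 0.05. The interaction of vitC and feed was called for 0 members and 0 of all symbols by edgeR (8 members and 638 symbols at an unadjusted p under 0.05, and 3 symbols by DESeq2). It was 1.41 ± 0.42 for CLDN4 (adjusted p = 0.289) and -0.83 ± 0.37 for GPC1 (adjusted p = 0.53).

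The third question was how far the switch to low fat feed brought the members back to the level of animals never given high fat. With high vitC, 0 of 60 members were called in HFL/LFH over LFH (edgeR, beside 0.361% of all symbols), and 9 members and 804 symbols had an unadjusted p under 0.05. DESeq2 called 64 of all symbols there. Of the members EPCAM had the smallest p, with medians of 24.9 CPM in HFL/LFH and 13.5 CPM in LFH and a log2 fold change of 0.87 ± 0.27 (p = 0.00238, adjusted p = 0.171, 95% interval 0.33 to 1.42). With low vitC, 4 of 60 (6.67%) were called in HFL/LFL over LFH, beside 7.91% of all symbols (4.43% higher and 3.48% lower). EPCAM (1.09 ± 0.27, adjusted p = 0.00958) and CLDN4 (1.2 ± 0.30, adjusted p = 0.0112) were higher, and GPC1 (-1.01 ± 0.26, adjusted p = 0.0134) and GJB2 (-0.55 ± 0.17, adjusted p = 0.0313) were lower. The count was 2 without HFL/LFL animal 44, and 1 with only the 14 animals compared in the fit, where CLDN4, EPCAM and GPC1 were not called (adjusted p = 0.0546, 0.0541 and 0.0883).

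For EPCAM, CLDN4 and GJB2 the remaining difference had the direction of the high fat feed, and for GPC1 the opposite. EPCAM was not called without HFL/LFL animal 44, which had 70.3 CPM against 35 CPM in the next (0.70, adjusted p = 0.0952), and GJB2 was called in 8 of 14 fits without 1 animal. Whether HFL/LFL and HFL/LFH differed from each other was tested above, and EPCAM, CLDN4 and GJB2 were not called there.

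The last question was whether earlier low vitC on high fat feed, or the history of feeding, changed these genes. No member and no symbol was called in HFL/HFH over HFH (edgeR, 0% of all symbols), with 7 members and 466 symbols at an unadjusted p under 0.05 and 0 symbols by DESeq2. The difference of the feed effect between switched and lifelong animals was called for 0 of 60 members, beside 0.103% of all symbols, with 8 members and 524 symbols at an unadjusted p under 0.05 and 20 symbols called by DESeq2. The smallest was that of EPCAM (-1.09 ± 0.38, p = 0.00648, adjusted p = 0.517).

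Other genes of junctions and adhesion outside the rule were read from a list of 57, of which 23 were tested. Of these, 11 were higher and 3 lower in HFH than LFH, beside 27.7% and 21.7% of all symbols. In HFL/HFH over HFL/LFH 8 were higher and 2 lower, beside 19.4% and 16.5%. In HFL/HFL over HFL/LFL 9 were higher and 3 lower, beside 19.7% and 18.1%. In HFL/LFL over HFL/LFH 0 were called, beside 0.219%. The cytoplasmic partners of integrins divided: ILK, the integrin-linked kinase, was higher in all 3 feed comparisons (0.48 ± 0.08, 0.37 ± 0.09 and 0.29 ± 0.08), as was its partner PARVB (1.40 ± 0.15, 1.59 ± 0.17 and 0.95 ± 0.16), while LIMS2, another partner, was lower (-1.43 ± 0.16, -1.01 ± 0.18 and -0.66 ± 0.16). CD9, a tetraspanin that associates with integrins, was higher (2.19 ± 0.28, 1.26 ± 0.31 and 0.83 ± 0.28), and AFDN, the adherens junction protein afadin, was higher by 0.58 ± 0.09, 0.42 ± 0.11 and 0.45 ± 0.10. PANX1, which forms channels related in shape to connexins, was lower (-0.95 ± 0.14, -0.85 ± 0.16 and -0.78 ± 0.14). CTNNB1, the cytoplasmic partner of cadherins, was called only in HFL/HFL over HFL/LFL (-0.56 ± 0.17, adjusted p = 0.00951), where CDH1 and CDH5 were lower too.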

How the data were processed

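RNA from the left lateral lobe was enriched for mRNA with oligo-dT and sequenced. The authors trimmed reads with Trimmomatic 0.38.0, aligned them with HISAT2 2.1.0 to the Ensembl guinea pig genome, counted with StringTie 2.1.1 and named genes by human orthologue. They deposited whole-number counts per symbol, not normalized, and values stabilized for variance with DESeq2, which are log2. How counts were taken from StringTie, and whether strand was used, is not given in the sources used here, so overlapping genes cannot be told apart. No gene length was at hand, so levels are not compared between genes.

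Symbols whose counts summed to 200 or more (7750) were tested with edgeR 4.0.16 in R 4.3.3 (TMM, quasi-likelihood F test, two-sided). The model held the 44 animals together, with 6 group means, and gave 11 contrasts, each adjusted by the Benjamini-Hochberg procedure at 0.05. SE is the log2 fold change over the square root of F, and intervals are 95%. Each replicate is a separate animal. Of these symbols 964 share their counts with another.

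Alternatives were DESeq2 1.42.0, RLE normalization, no filter, filterByExpr, only the groups compared, limma 3.58.1 on the variance-stabilized values, symbols with the same counts taken once, each animal left out in turn and, added after seeing the data, HFH animals 6 and 61 both left out. The fit was tested on simulated data in which 200 genes differed between LFH and HFH by 1 on the log2 scale. The members and lists were chosen with earlier results of these data known. Members named were up to 10 per direction with the largest change among those called in a comparison, those called in all 3 feed comparisons or in any other comparison, the smallest p of each family in HFH over LFH, and members known for leukocyte, hepatocyte, biliary, TGF-beta, proteoglycan or endothelial roles. Members outside this rule that are named as not called, and the genes named from the other lists, were chosen after their values were seen. The values of some members are not reported here, though they are in the counts. No sequences or coordinates were used, since the annotation at hand holds none of this build.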

Additional observations from a re-analysis of the deposited data

Results flagged for a closer look

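The 57 members drawn in the heat map were checked for a single animal standing apart from the rest of its group by the ratio of the gap to the range (Dixon's test at 95%). Of 342 groups of values, 41 had such an animal. The nominal rate of the test, about 1 in 20, assumes normally distributed values. The CPM tested were not log-transformed, and several members had few counts. No rate was measured for such values, so whether 41 is more than chance gives cannot be decided, and the animals are listed as a description. All values are CPM, with the next animal of the group in brackets.

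For several, a marker gene or another member stood out in the same animal. EPCAM was 55.1 (27.2) and CLDN10 21.7 (7.96) in HFL/LFH animal 33, and EPCAM was 70.3 (35), CLDN10 28.8 (10.3) and CLDN11 2.57 (0.999) in HFL/LFL animal 44. These animals also had the highest KRT7 of their groups, 41.4 and 44.1 CPM. The summed bile duct markers were highest of the group in HFL/LFH animal 33 (397 CPM). They were not in HFL/LFL animal 44 (287 CPM, against 373 CPM in HFL/LFL animal 68). CDH3 was 1.23 (0.516) and CLDN1 0.893 (0.410) in LFH animal 92, and CDH3 was 2.89 (0.452) and CLDN1 2.66 (0.294) in HFL/LFH animal 32. These animals had the highest MSLN of their groups, 15.6 and 49.3 CPM. JAM3 was 33.6 (22) and GPC3 110.3 (54.4) in HFL/HFH animal 30. Of the stellate cell and fibroblast markers, DPT (126 CPM), PDGFRB (127 CPM) and THY1 (65.5 CPM) were highest of the group there. PDGFRA (61.1 CPM), ACTA2 (59.7 CPM) and LRAT (27.3 CPM) were lowest of the group. The summed list was 812 CPM, within the group's range of 598 to 1082 CPM. CDH11 was 0.873 (0.247) and CLDN11 2.65 (1.27) in HFL/HFL animal 55. ITGB2 was 181 (125) and GJB6 21.7 (46.4), the lowest of its group, in LFH animal 64.

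The remaining values are given by member, and some of them fell in animals named before or in 1 animal together. EPCAM was 224 (157) in HFL/HFL animal 29, CLDN1 was 6.43 (2.30) in HFL/HFL animal 31, ITGA8 was 6.56 (3.65) in HFL/HFL animal 34 and ITGA11 was 8.85 (3.55) in HFH animal 6. ICAM2 was 17.8 (13.8) in HFL/HFL animal 81, ITGA4 was 4.32 (2.18) in HFL/LFL animal 13, CDH11 was 1.08 (0.501) in LFH animal 56 and CDH13 was 2.35 (1.53) in HFL/LFH animal 3. The lowest of their groups were PECAM1 with 128 (149) in HFL/LFL animal 17 and ITGB8 with 0.409 (1.48) in HFL/HFH animal 20. Among members with few counts, GJC3 was 0.959 (0.315) in HFL/HFH animal 30 and 1.31 (0.392) in HFL/LFH animal 58, and ICAM5 was 0.932 (0.379) in HFL/HFL animal 93, 0.452 (0.0884) in HFL/LFH animal 58 and 0.191 (0) in LFH animal 64. PCDH15 was 0.973 (0.280) in HFH animal 18, 0.558 (0.137) in HFL/HFH animal 20, 1.59 (0.572) in HFL/HFL animal 34 and 7.06 (2.84) in LFH animal 79. PCDH10 was 0.447 (0.101) in HFL/LFL animal 49, ITGB1BP2 was 0.495 (0.247) in HFL/HFL animal 55 and CDH22 was 3.01 (1.47) in HFL/HFL animal 93. PCDH18 was 37.9 (28.4) in HFH animal 6 and 69.5 (21) in HFL/LFH animal 43, and PCDHGA6 was 131 (91.4) in HFL/HFH animal 30 and 148 (107) in HFL/LFL animal 44.

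Among the members no interaction of vitC and feed and no difference of the feed effect between switched and lifelong animals passed the correction.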

How the results depend on the processing

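The alternatives were computed for the counts of members called in 11 comparisons and for each call. No direction changed. Of the 69 calls of members, 23 of 483 results under the 7 alternatives lost the call, as did 109 of 1034 fits without 1 animal, spread over 21 calls. RLE moved the median of all symbols by at most 0.013 (log2), in HFL/HFL over HFL/LFL. The counts in the 3 feed comparisons stayed within 1.5 times under every alternative. Without 1 animal they were 23 to 26 (HFH over LFH), 11 to 16 (HFL/HFH over HFL/LFH) and 19 to 24 (HFL/HFL over HFL/LFL). In HFL/LFL over HFL/LFH the count of 1 became 0 with only the groups compared and 0 with limma on the variance-stabilized values, and 0 to 2 without 1 animal. In HFL/LFL over LFH the count of 4 became 1 with only the groups compared, and 2 to 5 without 1 animal, the 2 without HFL/LFL animal 44. In HFL/HFL over HFH the count of 1 became 2 with DESeq2, 0 without a filter and 0 with only the groups compared, and 0 to 2 without 1 animal. With HFH animals 6 and 61 both left out, an alternative chosen after seeing the data, the count was 21 in HFH over LFH and 0 in HFL/HFL over HFH, where ITGA9 was lost. The other 5 comparisons had 0 members called without any 1 animal. The fit of only the groups compared estimates the spread from fewer animals, and for the other changes the cause was not tested.

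Calls that were lost without a filter were CADM3, CDH3 and PCDH10 in HFH over LFH, GPC4 and SDC4 in HFL/HFH over HFL/LFH and ITGA6 in HFL/HFL over HFL/LFL. Those lost with only the groups compared were CADM3 and CDH24 in HFH over LFH, GJA1, ITGA4, GPC4 and SDC4 in HFL/HFH over HFL/LFH, PCDH15 in HFL/HFL over HFL/LFL, and CLDN4, EPCAM and GPC1 in HFL/LFL over LFH. Limma lost CDH24, GJA1 and SDC4 in the same comparisons. No paired analysis was possible because each animal belongs to a single group and the animal numbers are not shared between groups. Members with under 1 CPM rest on few counts, and their intervals are wide.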

Other observations

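HFH animals 6 and 61 stood at the ends of the range for several members at once. Of all 44 animals they had the highest and second highest EPCAM (391 and 257 CPM), CDH3 (4.42 and 3.74 CPM) and GPC3 (210.0 and 170.1 CPM), and the lowest levels of GJB2 (149 and 122 CPM) and GJA4 (17.8 and 9.42 CPM). They were also the highest for JAM3 (40.2 and 40.3 CPM) and CLDN10 (94.7 and 129 CPM). The fibroblast gene LUM was highest in the same animals (825 and 705 CPM), and the sinusoidal marker LYVE1 was lowest (28.1 and 33.1 CPM). Other markers of these lists went the other way. LRAT, of the stellate cell or fibroblast list, was 22.6 and 10.7 CPM. The endothelial marker FLT1 was highest of HFH there (100 and 103 CPM), and VWF was 198 CPM in HFH animal 61, the highest of all animals. The summed fibroblast list was highest there (1725 and 1688 CPM), and the summed endothelial list was 631 and 565 CPM, against 501 to 631 CPM over HFH. The members and markers named here were chosen after their values were seen, the values are a description, and no group was formed from them. In HFH over LFH 23 members were called without HFH animal 6 and 23 without HFH animal 61, and 21 without both, where CDH3 was 0.81 ± 0.94 (adjusted p = 0.513, edgeR) and JAM3 -0.02 ± 0.16 on the log2 scale.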
